A study of Homo sapiens with 12 samples.

Results

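The genes described here encode the machinery of homologous recombination and of the Fanconi anemia pathway, with the checkpoint kinases that act beside them. They were chosen by name, as 41 genes, and each was read through its brightest single-gene probe set, by the mean of all 12 arrays. Of the 41 genes, 37 were measured in this way, out of 18132 genes in the table. RBBP8, BRCA2, FANCA and FANCD2 were not analysed here. RNA came from monolayers of A549, an epithelial line derived from a human lung adenocarcinoma and used as a model of alveolar type II cells, and was hybridised to Affymetrix PrimeView arrays. There were 4 groups of 3 arrays. Monolayers of the combined group were heat shocked for 2 h and then wounded for 4 h. The others were heat shocked for 2 h only, wounded for 4 h only, or left untreated as control. All groups were the same line grown on uncoated plastic in medium with fetal bovine serum. The labels give neither the collection time of monolayers without a wound nor whether replicate arrays stem from separate cultures, so the p-values measure the spread between these samples, which may be technical.

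Homologous recombination repairs a double-strand break by copying an intact sister chromatid, and so acts mainly in S and G2 phase. Nucleases trim the broken ends to single strands, BRCA1 and BRCA2 complexes prepare these for pairing with the sister, and helicases resolve the joined molecules. The Fanconi pathway opens crosslinks between the strands of DNA: a core complex attaches ubiquitin to FANCD2 and FANCI, and recombination then completes the repair. Many of these genes are known to be transcribed most in dividing cells.

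Values are log2 levels. The median log2 level of the arrays lay between 5.30 and 5.32, and arrays of a group correlated at 0.995 to 0.998. One array, heat shock and wounded replicate 2, stood apart, with an interquartile range of 3.98 against 4.13 to 4.24 on the other arrays. Counts of called repair genes for that group, and the falls of BARD1 and FANCM from control, are therefore also given without it. The other values include it. The 6 epithelial marker genes had mean levels of 9.19 to 13.8. Among the 8 alveolar type II markers, ABCA3 had a control mean of 7.65, SFTPC of 6.08, NAPSA of 5.92 and SFTPB of 5.26, while SFTPA1 at 2.26, SFTPA2 at 2.65, LAMP3 at 2.72 and SFTPD at 3.49 were dim. The mean levels of 19 leukocyte and endothelial markers, genes that epithelium should lack, had an upper quartile of 4.62, taken here as a dim line, so that 4 of the 8 type II markers lay above it. Of all genes, 64.6% had a mean above this line, and of the 37 repair genes 36 did. The exception was BRIP1.

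Most of the repair genes were lower after heat shock, and more of them, and by more, when the heat shocked monolayers were also wounded. In heat shocked and wounded monolayers 25 of the 37 genes were lower than in control and 2 were higher, at a limma adjusted p under 0.05. Over all genes tested, 14.4% were called lower and 8.66% higher in that comparison. After heat shock alone 19 were lower and 1 was higher, against 7.92% and 4.93% of all genes. After wounding alone 4 were lower and none higher, against 1.31% and 2.27% of all genes. The median log2 difference of the 37 genes was -0.44, -0.29 and -0.14 in these comparisons, while the median of all genes was -0.01, -0.03 and -0.03. The 3 comparisons share the control arrays. With cyclic loess scaling the calls over all genes became 10.6% lower and 10.7% higher for both treatments and 6.12% and 6.02% for heat shock, and the repair genes then had 23 lower and 2 higher, and 15 lower and 1 higher. Without the array that stood apart, 24 were lower and 2 higher after both treatments. The 2 higher calls, RAD50 and FANCF, were both lost when control replicate 1 or 3, or heat shock and wounded replicate 1, was left out, and 1 of them was lost without control replicate 2, wounded replicate 3 or heat shock and wounded replicate 3. Above the dim line, the genes called after both treatments had 32 other probe sets, of which 32 had the same sign and 21 passed, and those called after heat shock had 20, of which 20 had the same sign and 8 passed.

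The mean level over the 37 genes ran from 7.05 to 7.17 on the arrays of heat shocked and wounded monolayers, from 7.27 to 7.34 after heat shock, from 7.39 to 7.46 after wounding, and from 7.57 to 7.60 in control. The 4 groups did not overlap on this mean. Gene by gene, the arrays of both treatments lay wholly under control for 27 genes and wholly above for 2, against 22.7% and 14.7% of all genes. These counts were 24 and 2 for heat shock (20.8% and 10.5% of all genes), and 17 and 0 for wounding (13.9% and 7.97%). For 26 of the 37 genes, or 70.3%, the group means fell in the order control, wounded, heat shocked, both, an order that 13.5% of all genes had. In RNA of whole monolayers, fewer cells that express a gene and less of its RNA per cell cannot be told apart.

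**Figure D1:**
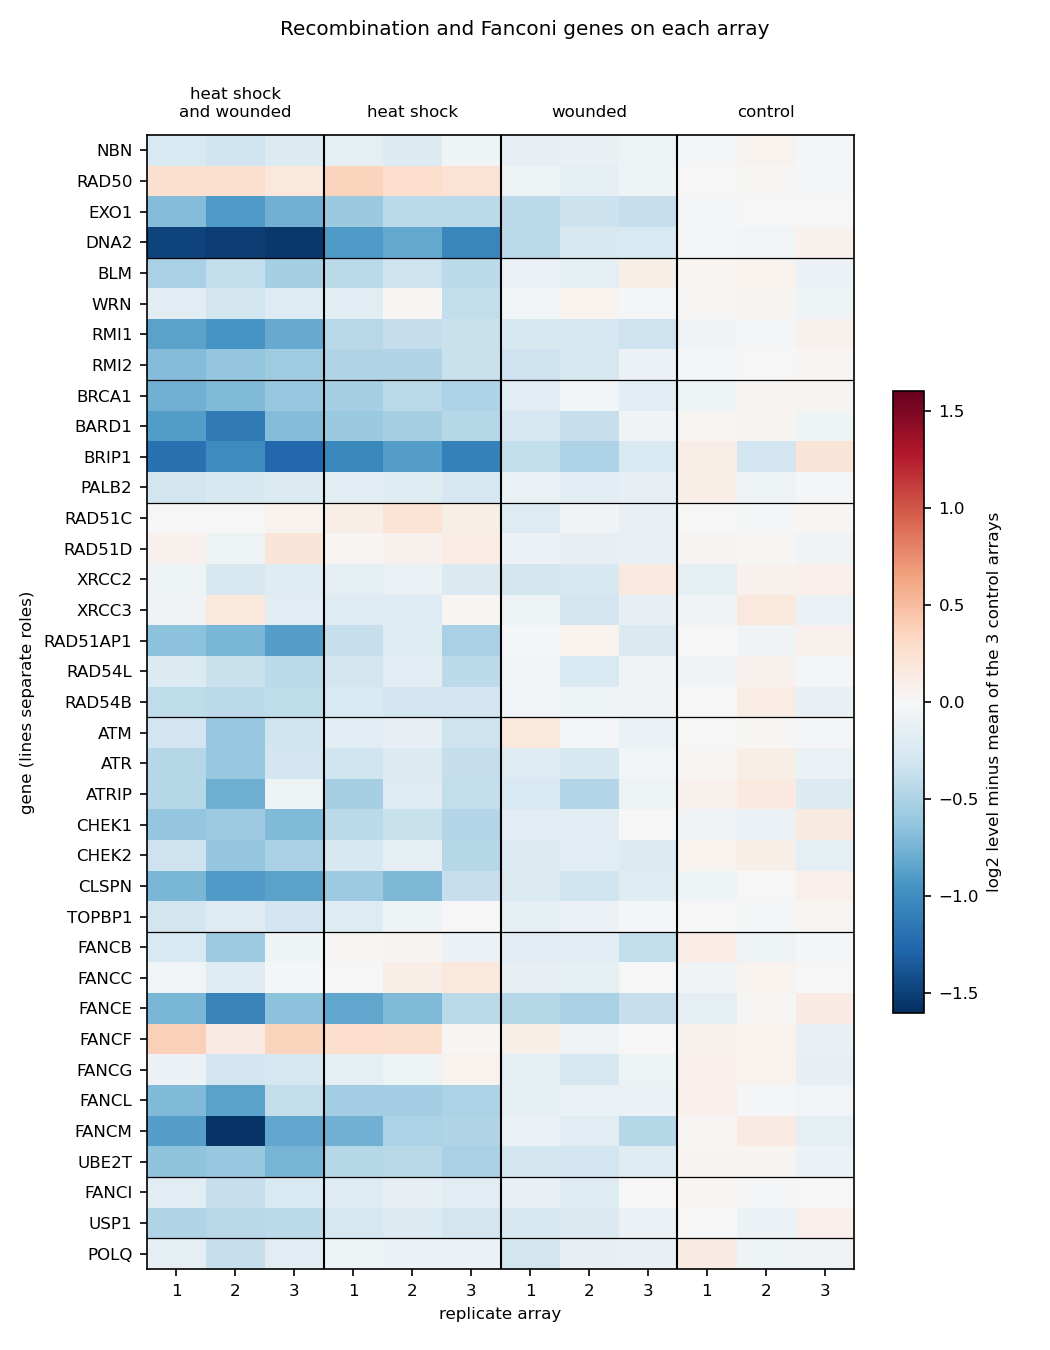
Colours show the log2 level of each of the 37 repair genes (rows, in blocks by role) on each of the 12 arrays (columns, 3 replicates per group), minus the mean of the 3 control arrays. Blue deepens from the wounded to the heat shocked and then to the heat shocked and wounded arrays for most rows, while RAD50 and FANCF are red in the columns of both treatments.

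The genes of end resection held the deepest fall. DNA2 encodes a nuclease and helicase that digests long stretches of the 5′ strand together with BLM or WRN. Its levels were 5.50, 5.46 and 5.44 on the arrays of heat shocked and wounded monolayers, 6.07, 6.17 and 5.93 after heat shock alone and 6.55, 6.72 and 6.74 after wounding alone, against 6.95, 6.94 and 7.05 in control. No array overlapped between any of the 4 groups. DNA2 fell by 1.51 ± 0.08 (SE) on the log2 scale after both treatments, to 0.35 of the control level (limma adjusted p = 1.02e-07), by 0.93 ± 0.08 after heat shock (adjusted p = 1.2e-05) and by 0.31 ± 0.08 after wounding (adjusted p = 0.0423). A second DNA2 probe set above the dim line differed by -0.87 after both treatments and by -0.69 after heat shock, and passed both times when adjusted over all probe sets. It differed by -0.20 after wounding and did not pass, and the wounding call of DNA2 held in 7 of 22 alternative settings.

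EXO1, the other long-range resection nuclease, acts on the same 5′ strand. Its levels were 7.40, 7.19 and 7.33 on the arrays of heat shocked and wounded monolayers, 7.50, 7.67 and 7.66 after heat shock alone and 7.67, 7.75 and 7.72 after wounding alone, against 8.08, 8.10 and 8.09 in control. The control arrays were above all others, and EXO1 fell by 0.79 ± 0.07 after both treatments (adjusted p = 7.74e-06), by 0.48 ± 0.07 after heat shock (adjusted p = 0.000934) and by 0.38 ± 0.07 after wounding (adjusted p = 0.0104).

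NBN and RAD50 encode subunits of the complex that senses broken ends and starts their trimming. NBN levels were 9.79, 9.72 and 9.81 on the arrays of heat shocked and wounded monolayers, 9.89, 9.81 and 9.96 after heat shock alone and 9.90, 9.92 and 9.95 after wounding alone, against 10.00, 10.08 and 10.02 in control. The control arrays were above all others. NBN fell by 0.26 ± 0.06 after both treatments (adjusted p = 0.00881), and differed by -0.14 ± 0.06 after heat shock (adjusted p = 0.16) and -0.11 ± 0.06 after wounding (adjusted p = 0.493). Of its other 4 probe sets, at -0.35 to -0.08 after both treatments, 1 passed. RAD50 levels were 9.50, 9.49 and 9.41 on the arrays of heat shocked and wounded monolayers, 9.60, 9.52 and 9.47 after heat shock alone and 9.18, 9.10 and 9.17 after wounding alone, against 9.24, 9.26 and 9.21 in control. All 6 heat shocked arrays, wounded or not, were above all 6 others for RAD50, and it rose by 0.23 ± 0.06 after both treatments (adjusted p = 0.0154) and by 0.29 ± 0.06 after heat shock (adjusted p = 0.00755). Of its other 2 probe sets, neither passed in these comparisons, with differences of 0.05 and 0.03 after both treatments and 0.28 and 0.03 after heat shock, so the rise of RAD50 rests on 1 probe set. Its call after both treatments held in 17 of 22 alternative settings.

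Genes for the enzymes that unlink joined DNA molecules fell in 3 of 4 cases. RMI1 and RMI2 encode the partners that hold the BLM helicase to topoisomerase IIIα, the complex that dissolves double Holliday junctions. RMI1 levels were 7.68, 7.59 and 7.73 on the arrays of heat shocked and wounded monolayers, 8.09, 8.16 and 8.18 after heat shock alone and 8.29, 8.27 and 8.21 after wounding alone, against 8.48, 8.52 and 8.61 in control. Its 4 groups did not overlap, and RMI1 fell by 0.87 ± 0.06 after both treatments (adjusted p = 1.28e-06), by 0.39 ± 0.06 after heat shock (adjusted p = 0.00155) and by 0.28 ± 0.06 after wounding (adjusted p = 0.0286). The other 3 RMI1 probe sets differed by -0.72 to -0.62 after both treatments, and all 3 passed. They differed by -0.34 to -0.15 after heat shock, where 1 passed, and by -0.33 to -0.16 after wounding, where none did. The wounding call of RMI1 held in 13 of 22 alternative settings.

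RMI2 levels were 8.16, 8.22 and 8.28 on the arrays of heat shocked and wounded monolayers, 8.37, 8.36 and 8.49 after heat shock alone and 8.52, 8.58 and 8.75 after wounding alone, against 8.82, 8.84 and 8.87 in control. Its 4 groups did not overlap either. RMI2 fell by 0.63 ± 0.07 after both treatments and by 0.44 ± 0.07 after heat shock (adjusted p = 5.34e-05 and 0.00185), and differed by -0.23 ± 0.07 after wounding (adjusted p = 0.134). BLM, the Bloom syndrome helicase, was read at 7.31, 7.43 and 7.31 on the arrays of heat shocked and wounded monolayers, 7.40, 7.50 and 7.42 after heat shock alone and 7.74, 7.67 and 7.92 after wounding alone, against 7.87, 7.89 and 7.74 in control. Its wounded arrays overlapped the control arrays, while the heat shocked arrays lay under both: BLM fell by 0.48 ± 0.08 after both treatments and 0.39 ± 0.08 after heat shock (adjusted p = 0.000672 and 0.00563). WRN, the Werner syndrome helicase, differed by -0.23 ± 0.09 after both treatments and -0.18 ± 0.09 after heat shock, and passed in neither (adjusted p = 0.102 and 0.238).

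The measured genes of the BRCA1 and BRCA2 complexes were all lower after both treatments. BRCA1, a ubiquitin ligase that promotes resection, had levels of 7.36, 7.42 and 7.52 on the arrays of heat shocked and wounded monolayers, 7.60, 7.70 and 7.64 after heat shock alone and 7.95, 8.08 and 7.95 after wounding alone, against 8.04, 8.17 and 8.17 in control. The heat shocked arrays, wounded or not, were under all wounded and control arrays. BRCA1 fell by 0.70 ± 0.07 after both treatments (adjusted p = 1.61e-05) and by 0.48 ± 0.07 after heat shock (adjusted p = 0.000751), and differed by -0.14 ± 0.07 after wounding (adjusted p = 0.447). Its other 3 probe sets above the dim line differed by -0.65 to -0.61 after both treatments and -0.49 to -0.39 after heat shock, and all 3 passed in both. The BRCA1 probe set used here has a name ending in _x_at, which marks probes that can also bind other transcripts.

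BARD1, the obligate partner of BRCA1, had levels of 6.64, 6.41 and 6.85 on the arrays of heat shocked and wounded monolayers, 6.94, 7.01 and 7.08 after heat shock alone and 7.27, 7.17 and 7.48 after wounding alone, against 7.56, 7.58 and 7.48 in control. It fell by 0.91 ± 0.11 after both treatments (adjusted p = 6.26e-05; 0.79 without the array that stood apart) and by 0.53 ± 0.11 after heat shock (adjusted p = 0.00652). BRIP1, a helicase that binds BRCA1 and is also the Fanconi gene FANCJ, was at 3.43, 3.61 and 3.36 on the arrays of heat shocked and wounded monolayers, 3.59, 3.74 and 3.54 after heat shock alone and 4.23, 4.13 and 4.38 after wounding alone, against 4.73, 4.31 and 4.82 in control. The heat shocked arrays, wounded or not, were all under the wounded and control arrays, and the control SD of 0.27 was the highest of the 37 genes in that group. BRIP1 fell by 1.15 ± 0.12 after both treatments (adjusted p = 3.24e-05) and by 0.99 ± 0.12 after heat shock (adjusted p = 0.00028), sizes that are approximate because all treated levels were under the dim line. Its other probe set, dimmer still, also passed after both treatments, at -0.75.

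PALB2, which links BRCA1 to BRCA2, had levels of 8.21, 8.24 and 8.29 on the arrays of heat shocked and wounded monolayers, 8.34, 8.30 and 8.23 after heat shock alone and 8.39, 8.32 and 8.36 after wounding alone, against 8.60, 8.42 and 8.48 in control. Its change was smaller: it fell by 0.26 ± 0.06 after both treatments (adjusted p = 0.0121), and after heat shock its difference of -0.21 ± 0.06 just missed the threshold (adjusted p = 0.0509).

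Among the genes of strand exchange, RAD51AP1, RAD54L and RAD54B, whose proteins help the broken strand invade its template, were lower after both treatments and after heat shock. RAD51AP1 levels were 7.53, 7.45 and 7.30 on the arrays of heat shocked and wounded monolayers, 7.81, 7.98 and 7.66 after heat shock alone and 8.14, 8.24 and 7.95 after wounding alone, against 8.17, 8.12 and 8.25 in control. It fell by 0.75 ± 0.10 after both treatments and by 0.36 ± 0.10 after heat shock (adjusted p = 0.000141 and 0.0291), and its other 3 probe sets above the dim line, at -0.79 to -0.56, passed after both treatments, as did 2 of the 3 after heat shock. RAD54B levels were 6.49, 6.47 and 6.49 on the arrays of heat shocked and wounded monolayers, 6.65, 6.58 and 6.59 after heat shock alone and 6.85, 6.83 and 6.83 after wounding alone, against 6.90, 7.01 and 6.78 in control. The 3 arrays of heat shocked and wounded monolayers were the closest of any gene and group here, with an SD of 0.0086, and RAD54B fell by 0.41 ± 0.06 after both treatments and 0.29 ± 0.06 after heat shock (adjusted p = 0.000594 and 0.0121). RAD54L levels were 6.29, 6.15 and 6.07 on the arrays of heat shocked and wounded monolayers, 6.22, 6.33 and 6.09 after heat shock alone and 6.46, 6.26 and 6.45 after wounding alone, against 6.45, 6.58 and 6.48 in control. The falls were 0.33 ± 0.09 and 0.29 ± 0.09 (adjusted p = 0.0137 and 0.0415).

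RAD51C, RAD51D, XRCC2 and XRCC3, whose proteins form complexes with one another that assist strand exchange, did not pass against control in any treated group. RAD51C had levels of 9.50, 9.50 and 9.55 on the arrays of heat shocked and wounded monolayers, 9.61, 9.73 and 9.60 after heat shock alone and 9.30, 9.45 and 9.38 after wounding alone, against 9.49, 9.48 and 9.53 in control. It differed from control by 0.01 ± 0.06 after both treatments, 0.14 ± 0.06 after heat shock and -0.13 ± 0.06 after wounding (adjusted p = 0.902, 0.175 and 0.42). RAD51D differed by 0.07 ± 0.07, 0.07 ± 0.07 and -0.12 ± 0.07 in the same order, XRCC2 by -0.18 ± 0.11, -0.16 ± 0.11 and -0.13 ± 0.11, and XRCC3 by -0.03 ± 0.11, -0.13 ± 0.11 and -0.16 ± 0.11 (over the 4 genes, limma adjusted p from 0.292 to 0.903 after both treatments, from 0.175 to 0.616 after heat shock and from 0.42 to 0.722 after wounding). The second XRCC2 probe set gave another result, with -0.51 after both treatments and -0.38 after heat shock, and passed in both. Both XRCC2 probe sets have the _x_at ending, so the XRCC2 values are uncertain.

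**Figure D2:**
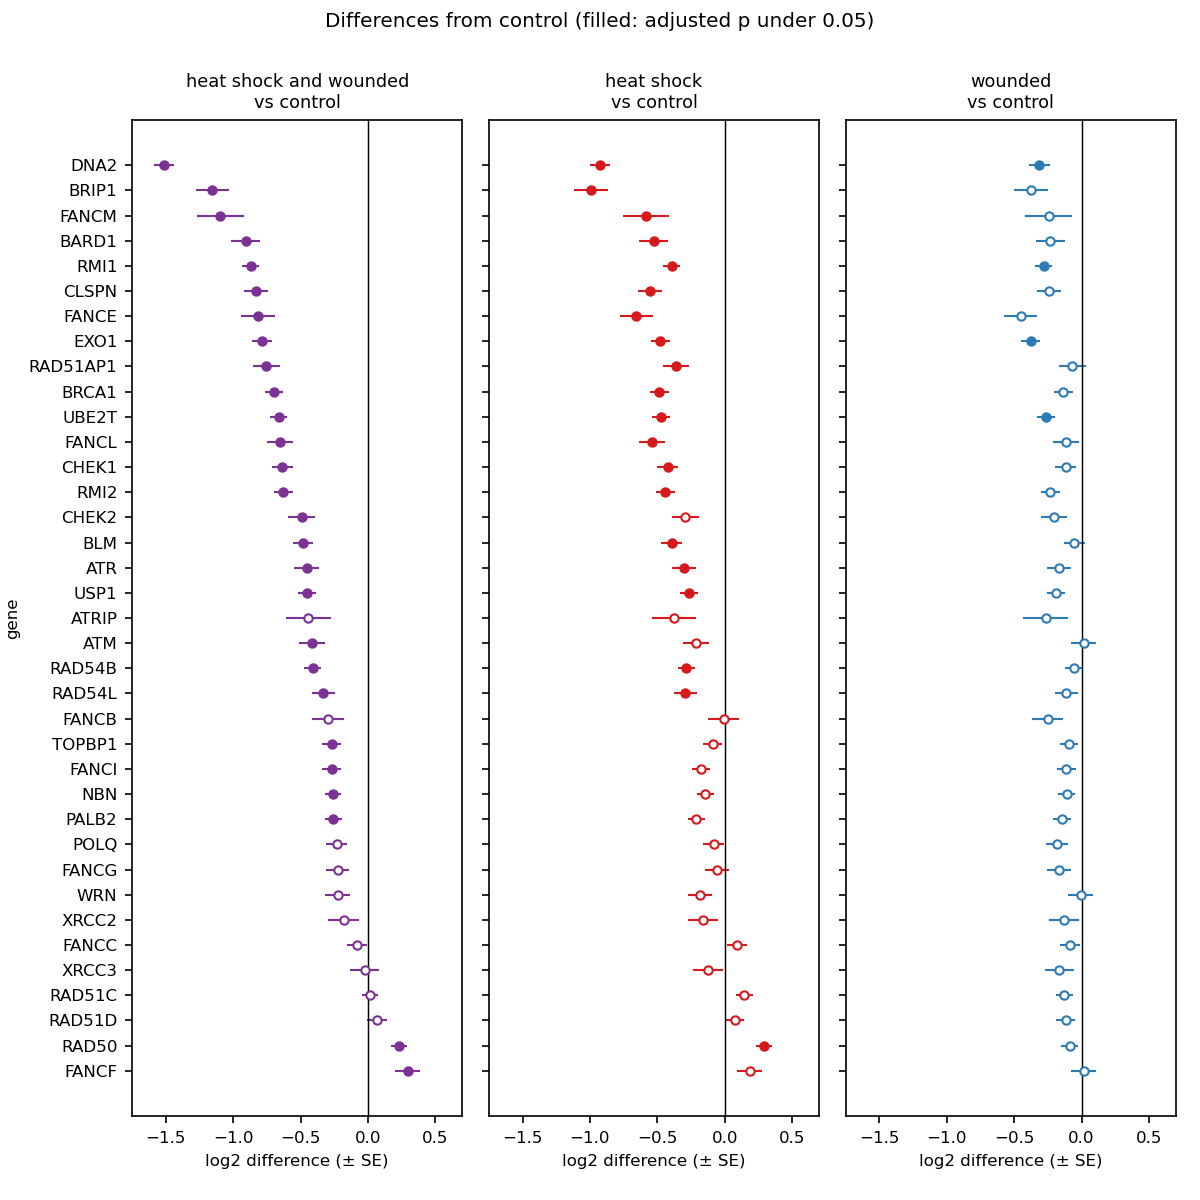
Points give the log2 difference of each repair gene from control with its SE, for both treatments, heat shock alone and wounding alone (panels left to right), and filled points passed the adjusted threshold. The rows are ordered by the combined difference, from DNA2 at -1.51 to FANCF at 0.29, and the points draw closer to 0 from the left panel to the right one.

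Of the 7 checkpoint genes, 6 fell after both treatments and 3 after heat shock. CHEK1 encodes the kinase that stops the cell cycle when replication stalls, ATR the kinase that switches it on, and CLSPN the adaptor claspin that joins them. CHEK1 levels were 7.53, 7.57 and 7.44 on the arrays of heat shocked and wounded monolayers, 7.71, 7.79 and 7.67 after heat shock alone and 7.96, 7.98 and 8.14 after wounding alone, against 8.10, 8.06 and 8.29 in control. The heat shocked arrays, wounded or not, were again under all wounded and control arrays, and CHEK1 fell by 0.63 ± 0.08 after both treatments (adjusted p = 9.47e-05) and 0.42 ± 0.08 after heat shock (adjusted p = 0.00395). CHEK1 had 5 other probe sets, which differed by -0.59 to -0.42 after both treatments and passed, and by -0.33 to -0.23 after heat shock, where 1 passed.

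CLSPN levels were 5.18, 5.01 and 5.06 on the arrays of heat shocked and wounded monolayers, 5.33, 5.20 and 5.54 after heat shock alone and 5.70, 5.60 and 5.72 after wounding alone, against 5.845, 5.903 and 5.998 in control. The 4 groups did not overlap. CLSPN fell by 0.83 ± 0.09 after both treatments and 0.56 ± 0.09 after heat shock (adjusted p = 2.97e-05 and 0.0015), the largest falls among the checkpoint genes. ATR levels were 7.18, 7.03 and 7.34 on the arrays of heat shocked and wounded monolayers, 7.32, 7.42 and 7.26 after heat shock alone and 7.43, 7.39 and 7.59 after wounding alone, against 7.65, 7.73 and 7.53 in control. ATR fell by 0.45 ± 0.09 after both treatments and 0.30 ± 0.09 after heat shock (adjusted p = 0.003 and 0.0481). ATRIP, the partner of ATR, differed by -0.44 ± 0.16 and -0.38 ± 0.16 and passed in neither (adjusted p = 0.0743 and 0.172), and its arrays overlapped between the groups.

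ATM and CHEK2 form the arm of the checkpoint that answers double-strand breaks. ATM levels were 5.95, 5.64 and 5.93 on the arrays of heat shocked and wounded monolayers, 6.07, 6.12 and 5.92 after heat shock alone and 6.42, 6.24 and 6.15 after wounding alone, against 6.26, 6.28 and 6.22 in control. ATM fell by 0.41 ± 0.10 after both treatments (adjusted p = 0.00753), and its differences of -0.22 ± 0.10 after heat shock and 0.01 ± 0.10 after wounding did not pass (adjusted p = 0.18 and 0.975). CHEK2 levels were 6.77, 6.47 and 6.58 on the arrays of heat shocked and wounded monolayers, 6.83, 6.94 and 6.63 after heat shock alone and 6.88, 6.92 and 6.87 after wounding alone, against 7.15, 7.20 and 6.95 in control. It fell by 0.49 ± 0.10 after both treatments (adjusted p = 0.00302), and its -0.29 ± 0.10 after heat shock did not pass (adjusted p = 0.0739). CHEK2 has copies elsewhere in the genome and its probe set ends in _x_at, so its level and its fall are uncertain. The CHEK2 call after both treatments held in 20 of 21 alternative settings, with differences from -0.57 to -0.17. TOPBP1, which activates ATR, fell by 0.27 ± 0.07 after both treatments (adjusted p = 0.0126), and its other probe set, at -0.17, did not pass. The other 3 ATM probe sets differed by -0.41 to -0.13 after both treatments, and 1 passed.

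Calls were mixed among the genes of the Fanconi core complex. Of 8 measured core and E2 genes, 4 were called lower and 1 higher after both treatments, against 14.4% and 8.66% of all genes. The differences of 7 of the 8 were below 0, as were 51.4% of those of all genes. Whether these genes differ from one another was not tested. FANCL encodes the ubiquitin ligase of the complex and UBE2T the conjugating enzyme that works with it. UBE2T levels were 9.82, 9.85 and 9.72 on the arrays of heat shocked and wounded monolayers, 10.00, 10.01 and 9.95 after heat shock alone and 10.16, 10.16 and 10.27 after wounding alone, against 10.50, 10.51 and 10.37 in control. UBE2T fell by 0.66 ± 0.07 after both treatments (adjusted p = 1.52e-05) and by 0.47 ± 0.07 after heat shock (adjusted p = 0.000563). After wounding it fell by 0.26 ± 0.07 (adjusted p = 0.0455), a call that held in 10 of 22 alternative settings. FANCL levels were 8.66, 8.52 and 8.98 on the arrays of heat shocked and wounded monolayers, 8.82, 8.82 and 8.86 after heat shock alone and 9.23, 9.27 and 9.28 after wounding alone, against 9.46, 9.34 and 9.32 in control. The wounded and control arrays were all above the heat shocked ones, and FANCL fell by 0.65 ± 0.10 after both treatments and 0.54 ± 0.10 after heat shock (adjusted p = 0.000374 and 0.00322). Its other 2 probe sets passed after both treatments, at -0.65 and -0.46, and not after heat shock, at -0.37 and -0.34.

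FANCM, a translocase that anchors the core complex to DNA, had levels of 4.93, 4.25 and 4.98 on the arrays of heat shocked and wounded monolayers, 5.04, 5.31 and 5.34 after heat shock alone and 5.71, 5.64 and 5.36 after wounding alone, against 5.84, 5.94 and 5.67 in control. The array that stood apart gave the lowest FANCM value. FANCM fell by 1.09 ± 0.17 after both treatments (adjusted p = 0.000569), by 0.86 without that array, and by 0.58 ± 0.17 after heat shock (adjusted p = 0.0426). Its other 2 probe sets, both under the dim line, differed by -0.09 and -0.17 after both treatments and by 0.05 and 0.01 after heat shock, and did not pass. FANCE, the core subunit that binds FANCD2, had levels of 5.16, 4.83 and 5.24 on the arrays of heat shocked and wounded monolayers, 5.06, 5.19 and 5.47 after heat shock alone and 5.43, 5.37 and 5.52 after wounding alone, against 5.75, 5.91 and 6.02 in control. It fell by 0.81 ± 0.12 and 0.66 ± 0.12 (adjusted p = 0.000433 and 0.00421) through an _x_at probe set. The other 2 FANCE probe sets, without that ending and under the dim line, differed by -0.11 and -0.38 after both treatments, where the second passed, and by 0.01 and -0.31 after heat shock, where neither did.

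FANCF, an adaptor subunit, was the only gene of the core complex called higher. Its levels were 8.15, 7.90 and 8.12 on the arrays of heat shocked and wounded monolayers, 8.05, 8.02 and 7.78 after heat shock alone and 7.86, 7.71 and 7.78 after wounding alone, against 7.83, 7.82 and 7.65 in control. FANCF rose by 0.29 ± 0.09 after both treatments (adjusted p = 0.0393), and differed by 0.18 ± 0.09 after heat shock (adjusted p = 0.25). Its other 2 probe sets had differences of 0.29 and 0.24 after both treatments and did not pass. The call was lost without control replicate 1, 2 or 3, heat shock and wounded replicate 1 or 3, or wounded replicate 3. FANCB, FANCC and FANCG, further core subunits, did not pass in any comparison with control, and their differences after both treatments were -0.30 ± 0.12, -0.08 ± 0.07 and -0.23 ± 0.09 (adjusted p = 0.0877, 0.505 and 0.0871).

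Downstream of the core complex, FANCI is the ubiquitinated partner of FANCD2, and USP1 the enzyme that removes that ubiquitin. FANCI levels were 9.05, 8.87 and 8.99 on the arrays of heat shocked and wounded monolayers, 9.03, 9.10 and 9.06 after heat shock alone and 9.11, 9.03 and 9.23 after wounding alone, against 9.27, 9.21 and 9.23 in control. FANCI fell by 0.27 ± 0.07 after both treatments (adjusted p = 0.0143) and differed by -0.18 ± 0.07 after heat shock (adjusted p = 0.129). Of its other 2 probe sets, 1 passed in each of these comparisons. USP1 levels were 9.52, 9.56 and 9.59 on the arrays of heat shocked and wounded monolayers, 9.73, 9.79 and 9.71 after heat shock alone and 9.75, 9.78 and 9.91 after wounding alone, against 10.02, 9.92 and 10.09 in control. USP1 fell by 0.45 ± 0.07 and 0.26 ± 0.07 (adjusted p = 0.000384 and 0.0216). POLQ encodes the polymerase of an end joining route that competes with recombination. Its difference of -0.23 ± 0.08 after both treatments just missed the threshold (adjusted p = 0.0544). After heat shock the difference was -0.08 ± 0.08 (adjusted p = 0.598). The other POLQ probe set above the dim line differed by -0.11 after both treatments and by 0.36 after heat shock, and passed in neither.

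**Figure D3:**
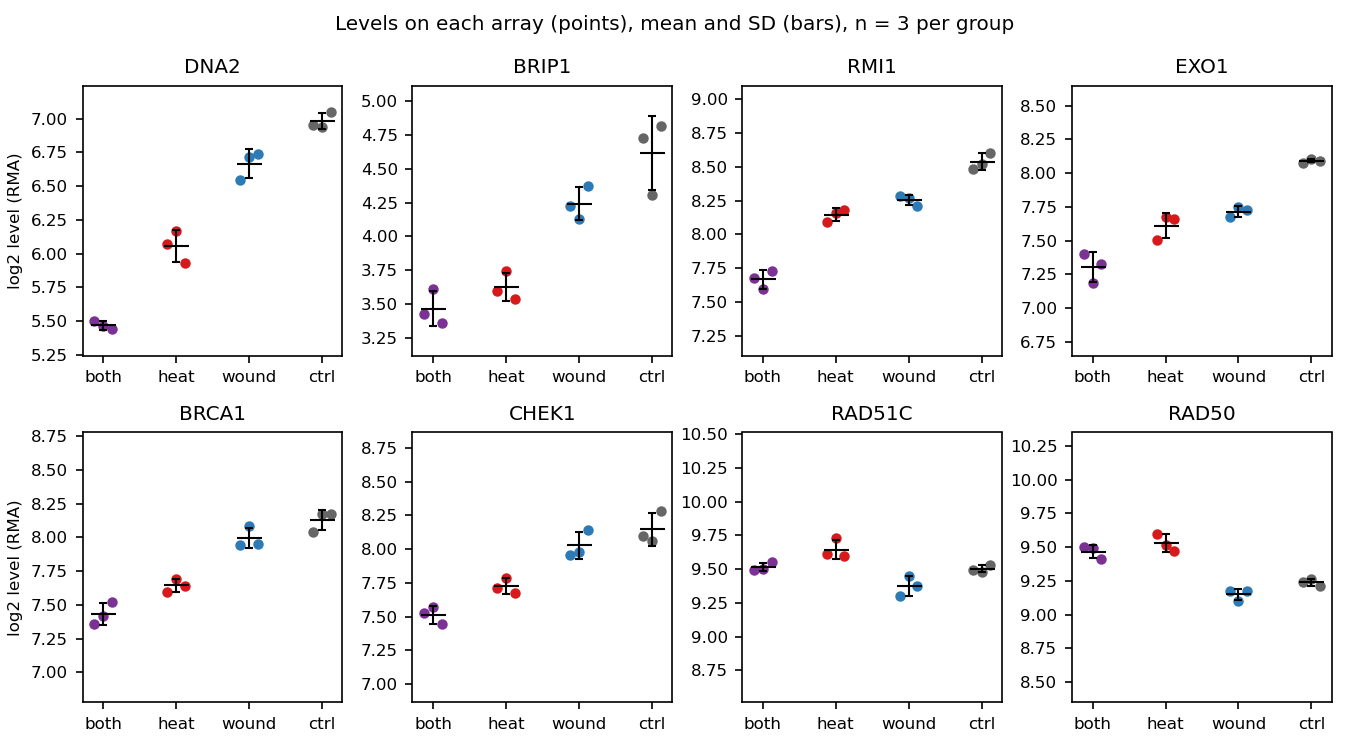
Each panel gives the log2 level of 1 gene on each array (points) with the group mean and SD (bars, n = 3), in heat shocked and wounded (both), heat shocked (heat), wounded (wound) and control (ctrl) monolayers, with a span of 2 log2 units on every vertical axis. DNA2 and RMI1 step down between all 4 groups, BRCA1 and CHEK1 fall in the heat shocked groups, and RAD50 lies higher there.

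Adding heat shock to wounding was tested within the wounded monolayers. Against wounding alone, 17 of the 37 genes were lower in heat shocked and wounded monolayers and 1 was higher, where 8.6% of all genes were lower and 6.31% higher. The median difference was -0.29 for these genes and 0.02 for all. DNA2 fell by 1.20 ± 0.08, to 0.435 of its level in wounded monolayers (adjusted p = 1.84e-06), FANCM by 0.85 ± 0.17, BRIP1 by 0.78 ± 0.12, RAD51AP1 by 0.68 ± 0.10 and BARD1 by 0.67 ± 0.11. The FANCM and BARD1 falls include the array that stood apart, on which both genes had their lowest level. Over 22 alternative settings the difference ran from -0.98 to -0.34 for FANCM and from -0.78 to -0.56 for BARD1. Both calls held in all of these settings. RAD50 rose by 0.32 ± 0.06 (adjusted p = 0.00408). Without the array that stood apart, 16 were lower and 3 higher.

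Adding wounding to heat shock changed few of them. Heat shocked and wounded monolayers had 4 genes lower than heat shocked ones and none higher, against 1.58% and 2.71% of all genes. The 4 genes were DNA2 at -0.59 ± 0.08, RMI1 at -0.48 ± 0.06, RAD51AP1 at -0.39 ± 0.10 and EXO1 at -0.31 ± 0.07 (adjusted p = 0.000771, 0.000893, 0.045 and 0.0301). Above the dim line, 3 of these genes had 7 other probe sets, of which 7 had the same sign and 1, of RMI1, passed. The second DNA2 probe set was at -0.18 and did not pass. The RAD51AP1 call held in 10 of 22 alternative settings and that of EXO1 in 16. Of the 37 differences 35 were below 0, as were 46.4% of those of all genes. The median was -0.16, against 0.01 for all genes. The count was 2 without heat shock replicate 2 and also 2 without heat shock and wounded replicate 2, the array that stood apart.

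Wounding alone gave the smallest changes against control. The 4 genes called lower were EXO1, DNA2, RMI1 and UBE2T. Of the 37 differences 35, or 94.6%, were below 0, against 62.2% of all genes. FANCE had the largest difference, -0.45 ± 0.12, and did not pass (adjusted p = 0.0776), nor did BRIP1 at -0.38 ± 0.12 (adjusted p = 0.165). The count of 4 depended on single arrays: it was 0 without wounded replicate 1, 1 without wounded replicate 2 or control replicate 1, and 2 without control replicate 2 or 3, heat shock replicate 1 or heat shock and wounded replicate 1.

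Set directly against wounding, heat shock left 8 of the genes lower and 2 higher, against 6.01% and 4.51% of all genes. Among the genes called lower, BRIP1 at -0.62 ± 0.12, DNA2 at -0.61 ± 0.08, FANCL at -0.43 ± 0.10, BRCA1 at -0.35 ± 0.07 and BLM at -0.34 ± 0.08 had the largest falls (adjusted p = 0.00703, 0.000319, 0.0142, 0.00663 and 0.0149). RAD50 was higher by 0.38 ± 0.06 and RAD51C by 0.27 ± 0.06 (adjusted p = 0.00154 and 0.0154). EXO1 differed by -0.10 ± 0.07 and RMI1 by -0.11 ± 0.06 between the single treatments, and neither passed (adjusted p = 0.466 and 0.349). The total of 10 called genes became 5 without heat shock replicate 1 and 6 without wounded replicate 2.

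The interaction asked whether the effect of heat shock differed between wounded and unwounded monolayers. None of the 37 genes passed in limma, and 1 of all 18132 genes did, or 0.00552%. At an unadjusted p under 0.05 there were 2 of the 37 genes and 1302 of all genes. The differences ran from -0.32 ± 0.14 for RAD51AP1 to 0.29 ± 0.17 for FANCE, and their median was 0.00. DNA2 at -0.27 ± 0.11 had the lowest limma adjusted p of the 37 (adjusted p = 0.632). The SEs of these differences were 0.09 to 0.24, and even the differences of -0.32 and 0.29 did not pass. Departures from additivity of that size, and not only small ones, could thus go undetected.

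The other genes of these pathways were read from lists. Of all genes, 14.4%, 7.92% and 1.31% were called lower after both treatments, after heat shock and after wounding. Of 23 further recombination genes, 10 were lower after both treatments and none higher, with a median of -0.22, and 6 and 0 were lower after heat shock and after wounding. MCM9, a helicase subunit that aids resection, fell by 0.99 and FIGNL1, which encodes an ATPase, by 0.77. Of 16 further Fanconi and crosslink repair genes, 9 were lower after both treatments, 4 after heat shock and 2 after wounding, with REV3L, the catalytic subunit of polymerase zeta, at -0.73 ± 0.09 and the nuclease gene DCLRE1A at -0.60 ± 0.08. Of 22 further checkpoint and chromatin response genes, 8, 3 and 2 were lower in these comparisons, with TIPIN, a replication fork protector, at -0.75 ± 0.10 and the phosphatase gene CDC25A at -0.58 ± 0.10. None of these 3 lists had a member called higher against control. Of all genes, 8.66%, 4.93% and 2.27% were called higher in the same comparisons.

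Other repair routes were set beside them, to be read against the 14.4%, 7.92% and 1.31% of all genes called lower after both treatments, after heat shock and after wounding. Of 12 non-homologous end joining genes, 4 were lower after both treatments, none after heat shock and none after wounding, with medians of -0.10, -0.03 and -0.07. XRCC6, the Ku70 gene, and PRKDC, the DNA-dependent protein kinase gene, fell by 0.32 and 0.32 after both treatments. Mismatch repair had 3 of 5 genes lower after both treatments, with MSH6 at -0.62 ± 0.08. Base excision repair had 7 of 18 lower, with the flap nuclease gene FEN1 at -0.94 ± 0.09. Nucleotide excision repair had 5 of 14 lower and 1 higher, with XPA at -0.67 ± 0.16 and DDB2 at 0.41 ± 0.08. XPA levels after both treatments were spread, with an SD of 0.405 against 0.087 in control. After heat shock the mismatch, base excision and nucleotide excision lists had 1, 3 and 1 genes lower and 0, 1 and 0 higher. The 1 of 14 for nucleotide excision repair, or 7.1%, was near the share of all genes, and the 0 of 12 for end joining was under it. Whether the repair routes differ from one another was not tested.

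Proliferation genes moved with the repair genes, and their counts are read against the same shares of all genes. Of 21 G1/S and replication genes, 20 were lower after both treatments, 12 after heat shock and 6 after wounding, with medians of -0.52, -0.28 and -0.21. Among them CCNE2 and CCNE1, the cyclin E genes, were at -1.68 ± 0.17 and -1.01 ± 0.08 after both treatments. CCNE2 levels in that group had an SD of 0.412, against 0.144 in control. Of 20 G2/M and mitosis genes, 17, 15 and 0 were lower, with medians of -0.46, -0.27 and -0.10, and the mitotic kinesin genes KIF11 and KIF2C fell by 0.94 and 0.75 after both treatments. None of these 41 genes was called higher against control. Their part in the change of the repair genes was not tested.

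**Figure D4:**
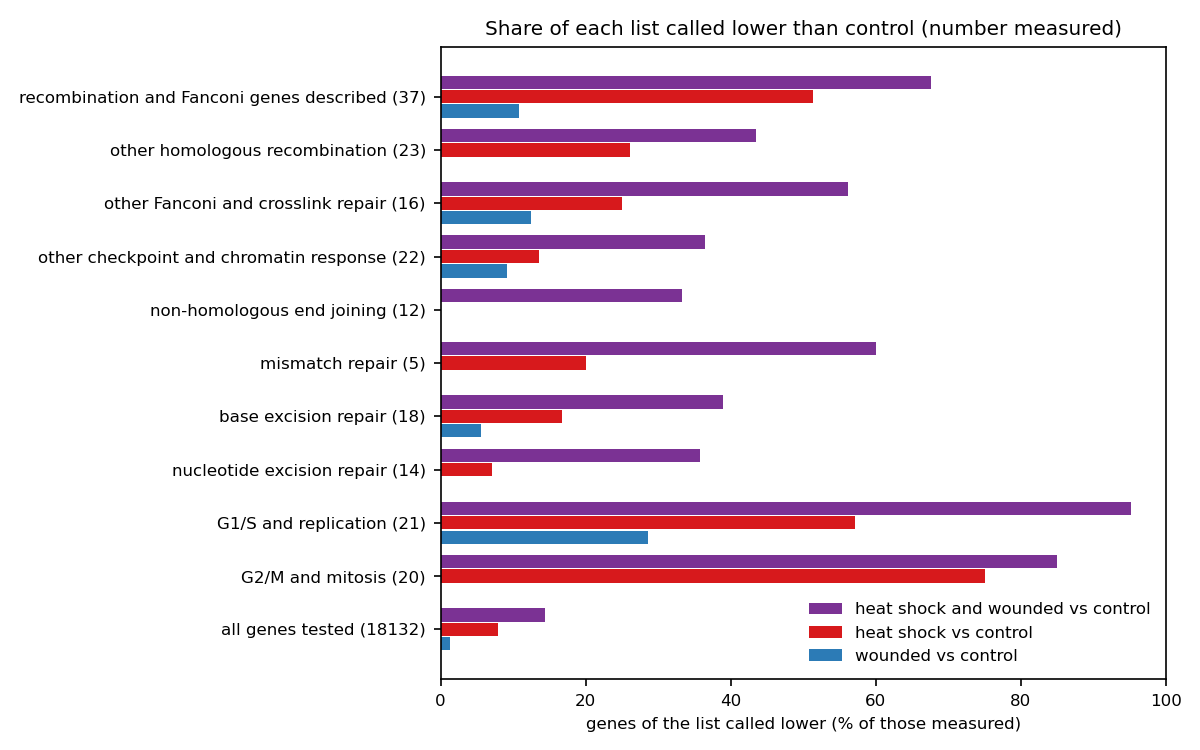
Bars give the percentage of each list's measured genes that were called lower than control at an adjusted p under 0.05, for heat shocked and wounded, heat shocked, and wounded monolayers, with the number measured beside each list. The recombination and Fanconi genes described stand at 67.6%, 51.4% and 10.8%, and all genes tested at 14.4%, 7.92% and 1.31%.

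Because so many of these genes moved together, their promoters were read for letters that cell cycle and heat shock factors are known to bind. The RefSeq table for GRCh38.p14 held 31 of the 37 genes, as 250 bases before to 50 bases after each start, and 11 of them had more than 1 start. DNA2, NBN, WRN, RMI2, RAD54B and FANCI had no entry that was used. The motifs, searched on both strands, were the E2F site (TTTCCCGC, TTTCGCGC, TTTGCCGC or TTTGGCGC), the cell cycle homology region CHR (TTTGAA), the CCAAT box (CCAAT) and a heat shock element of 3 alternating GAA and TTC units set 2 bases apart. Below are the 250 bases before the start of the 4 genes with the largest falls and the 2 with rises after both treatments among those in the table, shown so that the falling and rising genes can be compared, with motif letters in capitals.

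BRIP1, chr17:61863529-61863778, minus strand: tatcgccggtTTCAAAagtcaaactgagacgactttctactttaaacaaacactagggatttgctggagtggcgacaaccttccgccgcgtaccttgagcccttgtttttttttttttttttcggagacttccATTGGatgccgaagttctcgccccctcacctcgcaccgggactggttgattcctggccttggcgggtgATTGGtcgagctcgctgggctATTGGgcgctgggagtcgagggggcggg
FANCM, chr14:45135680-45135929, plus strand: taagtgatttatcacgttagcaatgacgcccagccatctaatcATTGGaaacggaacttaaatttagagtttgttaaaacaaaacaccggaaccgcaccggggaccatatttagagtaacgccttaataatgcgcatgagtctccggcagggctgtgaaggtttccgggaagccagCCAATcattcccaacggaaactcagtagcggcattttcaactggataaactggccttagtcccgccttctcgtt
BARD1, chr2:214809684-214809933, minus strand: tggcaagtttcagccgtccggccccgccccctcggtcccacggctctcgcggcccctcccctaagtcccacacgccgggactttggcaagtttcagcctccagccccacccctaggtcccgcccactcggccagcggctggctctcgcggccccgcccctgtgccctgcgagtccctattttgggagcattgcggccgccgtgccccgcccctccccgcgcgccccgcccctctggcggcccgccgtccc
RMI1, chr9:83980109-83980358, plus strand: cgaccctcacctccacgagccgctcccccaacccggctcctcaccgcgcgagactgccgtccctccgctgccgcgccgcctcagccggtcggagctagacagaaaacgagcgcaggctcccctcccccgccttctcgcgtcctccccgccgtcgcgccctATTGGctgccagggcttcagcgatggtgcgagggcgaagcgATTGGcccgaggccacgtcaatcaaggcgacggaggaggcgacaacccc
FANCF, chr11:22625824-22626073, minus strand: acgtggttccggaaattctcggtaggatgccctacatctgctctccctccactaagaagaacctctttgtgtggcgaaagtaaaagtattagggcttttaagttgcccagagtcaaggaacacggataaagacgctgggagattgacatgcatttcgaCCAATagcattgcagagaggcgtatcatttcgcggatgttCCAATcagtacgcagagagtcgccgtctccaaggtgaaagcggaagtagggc
RAD50, chr5:132556727-132556976, plus strand: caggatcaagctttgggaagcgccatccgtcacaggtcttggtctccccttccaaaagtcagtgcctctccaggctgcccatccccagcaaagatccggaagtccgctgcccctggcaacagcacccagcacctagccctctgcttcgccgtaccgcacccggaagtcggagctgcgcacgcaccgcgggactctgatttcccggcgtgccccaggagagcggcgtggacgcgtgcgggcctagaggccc

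BRIP1 showed 1 CHR match and 3 CCAAT matches, FANCM and RMI1 each 2 CCAAT matches, and BARD1 none. Of the rising pair, FANCF showed 2 CCAAT matches and RAD50 none. RMI1 has 2 starts in the table, of which 1 is printed, and its E2F match is not in the printed bases. An E2F site was found for 6 of the 31 genes, or 19.4%, against 5.53% of the 14425 tested genes in the table, a CHR for 6, or 19.4%, against 15.9%, and a CCAAT box for 17, or 54.8%, against 42.4%. The E2F matches belonged to EXO1, RMI1, XRCC2, CLSPN, TOPBP1 and FANCC. Among the 20 genes in the table that fell after both treatments, 14 had a CCAAT box, 4 an E2F site and 4 a CHR, and among the 9 not called 2 had each of these. A heat shock element was found in none of the 31, against 0.562% of all genes. Matches describe these windows only and do not show binding, and genes with several starts had more sequence to match.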

How the data were processed

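Total RNA of 12 A549 samples, 100 ng per array, was hybridised to PrimeView arrays, per the labels' protocols. The authors deposited log2 probe set levels, and per the submitters' processing notes used Affymetrix Expression Console and RMA; the version is not given in the sources used here. RMA sets all arrays to 1 distribution and can compress dim probe sets. Detection calls and scanner files were not used here. Of 49293 probe sets, 1 with a missing value was left out, and 44987 had 1 gene symbol in the platform annotation. Array number limits the precision.

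Limma 3.58.1 in R 4.3.3 was fitted to all 18132 genes and 12 arrays with 1 mean per group, no block and 8 residual degrees of freedom. The threshold was 0.05 on p-values adjusted by Benjamini-Hochberg over all genes of a comparison. Other probe sets were adjusted over all single-symbol probe sets. Levels carry SD and differences SE. The fit was tested on simulated data.

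The 41 genes, their roles, the lists and the rules were chosen with earlier results of these data known. Any of the 41 could be named. Values on every array are given for up to 4 called genes per role by size of change after both treatments, those called higher, and BRCA1, BRCA2, FANCD2, FANCI, ATM, ATR, CHEK1 and CHEK2 where measured. Up to 2 called genes per list were named. Alternatives were 3 rescalings, the replicate block, averaging samples 1 and 2 (whose descriptions share a stem), array weights, a trended robust prior, the mean of all probe sets, no dim genes, leaving out each array and, added after the data were seen, leaving out _s_at and _x_at probe sets.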

Additional observations from a re-analysis of the deposited data

How the results depend on the processing

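Counts of called repair genes stayed within 1.5 times the reported count under every alternative for heat shock and wounding against control (27 reported), for heat shock and wounding against wounding (18) and for the interaction (0). For heat shock (20 reported) averaging samples 1 and 2 gave 11. For wounding (4 reported) cyclic loess and the mean of all probe sets each gave 2, averaging samples 1 and 2 gave 0, array weights 9 and dropping _s_at and _x_at probe sets, added after the data were seen, 1. Averaging samples 1 and 2 also gave 2 for both treatments against heat shock (4 reported) and 3 for heat shock against wounding (10 reported), where array weights gave 16. Leaving out 1 array at a time gave 15 to 20 genes for heat shock, 0 to 5 for wounding, 23 to 28 for both, 17 to 21 for both against wounding, 2 to 4 for both against heat shock, 5 to 11 for heat shock against wounding and 0 to 0 for the interaction. Averaging leaves 4 residual degrees of freedom; for the other settings the cause was not tested. Dropping _s_at and _x_at sets gave FANCE 0.0079 after heat shock, read through another probe set. No other called gene changed sign. After heat shock FANCM, RAD54L and ATR passed in 9, 10 and 11 of 22 alternatives. With the replicate block 17 genes passed for heat shock, 3 for wounding, 27 for both, 19 for both against wounding, 4 for both against heat shock, 9 for heat shock against wounding and 0 for the interaction. Of 18 same-numbered pairs of arrays, 6 deviated together at a correlation over 0.1, while 8 of 12 arrays correlated best with their own number. With 3 arrays per group this check cannot decide whether same-numbered samples share a source. Signal over background limits BRIP1, whose mean lies under the dim line.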

Other observations

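Factors that control cell cycle transcription, read as a list of 19 E2F, RB and DREAM complex genes, had 9 members lower and 1 higher after both treatments, 6 lower and 1 higher after heat shock, and 3 lower and none higher after wounding. Their median log2 differences were -0.30, -0.19 and -0.11, against -0.01, -0.03 and -0.03 for all genes tested, of which 14.4%, 7.92% and 1.31% were lower. E2F8 and E2F7, which encode repressor members of the E2F family that are themselves expressed in S phase, had the largest changes after both treatments and after heat shock, while E2F2 had the largest after wounding, at -0.66 ± 0.12 (limma adjusted p = 0.00832; named after its value was seen). E2F8 fell by 1.12 ± 0.07 after both treatments (limma adjusted p = 5.19e-07) and by 0.77 ± 0.07 after heat shock (adjusted p = 2.83e-05), and by 0.29 ± 0.07 after wounding (adjusted p = 0.0418). E2F7 fell by 0.98 ± 0.09 after both treatments (adjusted p = 7.87e-06) and by 0.97 ± 0.09 after heat shock (adjusted p = 2.83e-05), and differed by -0.23 ± 0.09 after wounding (adjusted p = 0.258). None of the 19 passed the interaction.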
